A study of Capra hircus with 40 samples.

Results

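The genes that make, sense, import, move, store and export cholesterol were followed in whole ovary and whole uterus of female Jining gray goats at 4 ages. The set held 33 genes, taken as the rows of the deposited count table whose NCBI gene number carries 1 of 33 listed goat RefSeq symbols. All 33 symbols were present among the 30049 rows. By role, 7 genes act from acetyl-CoA to squalene, 10 from squalene to cholesterol, 4 in sterol sensing, 3 in uptake, 4 in movement and storage, and 5 in export.

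Bulk RNA sequencing covered 8 groups of 5 libraries, the ovary and the uterus at day 1 and at months 2, 4 and 6 after birth. All goats came from a common farm and husbandry, and the labels name no treatment and no genotype, so the labelled differences between groups are organ and age. The labels number the individuals 1 to 5 in each organ and age and do not say whether an ovary and a uterus of equal number came from 1 goat. The 5 libraries of each group are treated here as 5 animals.

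Cholesterol is built from acetyl-CoA through mevalonate and squalene, and the enzymes of the route are switched on together by SREBP2, the transcription factor encoded by SREBF2. When membranes are poor in sterol, SCAP escorts SREBP2 to the Golgi for activation, while INSIG1 and INSIG2 hold it back when sterol is plentiful. When cells are rich in sterol, the liver X receptors NR1H2 and NR1H3 induce the exporters ABCA1 and ABCG1 and the ubiquitin ligase MYLIP, which marks lipoprotein receptors for degradation. In the ovary, steroid-making cells, above all those of the corpus luteum, use cholesterol as the raw material of their hormones. These roles were worked out mainly in human and rodent cells.

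Levels are given as CPM, counts divided by the library size in a common unit, with library sizes scaled by TMM, a method that balances libraries of different makeup. Total counts ran from 31925520 to 62703770 per library. Of the 40 libraries 3 were set apart here on the marker genes below, a choice made with earlier results of these data known. Other libraries were as extreme by the share of all genes with their highest value of the organ. That share was 14.9% in ovary day 1 library 4, against 11.0% in library 3 and 14.1% in ovary month 4 library 5. In the uterus it was 11.9% in month 4 library 1 and 12.6% in month 4 library 5. Ovary day 1 library 3 had FSHR, the granulosa cell receptor for follicle-stimulating hormone, at 0.0809 CPM and the fat cell hormone ADIPOQ at 1827 CPM. Uterus month 4 library 5 had the elastin gene ELN at 11470 CPM and HOXA10, a patterning gene of the uterus, at 3.19 CPM. In ovary month 4 library 5 a list of 8 luteal and steroidogenic genes summed to 27300 CPM, against 89 to 803 CPM in the other 19 ovary libraries. FSHR was at 2.87 CPM or more in those ovary libraries other than day 1 library 3, and at most 0.141 CPM in the uterus. In bulk tissue fewer cells of a type and less RNA per cell cannot be told apart.

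The plainest pattern was that the synthesis enzymes moved together in single animals. In ovary month 4 library 5, 16 of the 17 enzymes were higher than in any of the other 19 ovary libraries, whereas 14.1% of all 20518 genes had their highest ovary value there. The median enzyme stood 8.16-fold above the median of the other 19. HMGCS1, which makes the HMG-CoA from which mevalonate comes, was at 3759 CPM there against 131 to 972 CPM elsewhere in the ovary. FDPS, which makes farnesyl diphosphate, was at 661 CPM against 23.2 to 123 CPM. MSMO1, which starts the removal of the methyl groups of the sterol ring, was at 2701 CPM against 72.4 to 461 CPM. All 3 genes lay far outside the range of the other ovaries in that library. The same held late in the route, where DHCR7, the reductase that yields cholesterol, was at 649 CPM against 10.2 to 76.1 CPM. TM7SF2, a sterol reductase, had the largest ratio of the 17, 49.4-fold over the median of the other libraries, at 472 CPM against 1.73 to 81.6 CPM. The exception was LBR, a nuclear envelope protein that carries the same reductase activity as TM7SF2. Its level there, 165 CPM, lay inside the range of the other ovaries, 136 to 231 CPM.

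**Figure D1:**
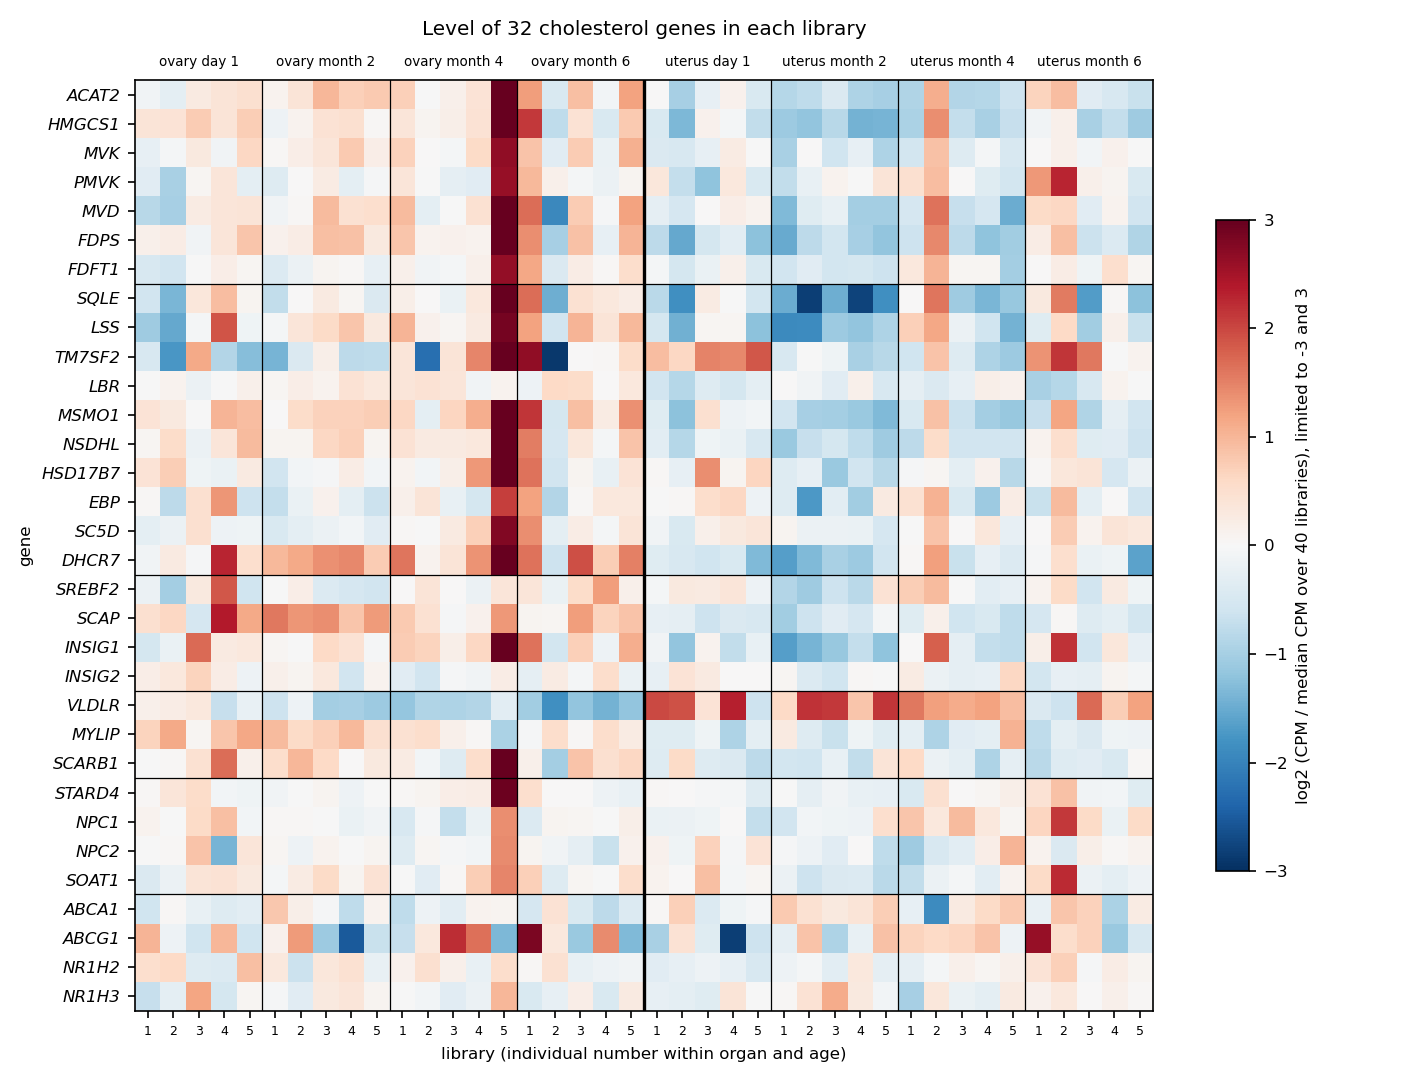
Level of 32 of the 33 genes (rows, grouped by role from synthesis at the top to export at the bottom) in each of the 40 libraries (columns), as the log2 ratio of CPM to the gene's median over all libraries, with colours limited to -3 and 3; ABCG5, at 0 in several libraries, is left out. Ovary month 4 library 5 is red through nearly all of the synthesis rows, and TM7SF2 was 472 CPM there.

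Outside synthesis, 6 more members were highest in ovary month 4 library 5, and 1 was lowest. SCARB1, the receptor that takes cholesterol esters from HDL, was at 536 CPM against 5.54 to 36.3 CPM in the other 19 ovary libraries. STARD4, a soluble sterol carrier, was at 199 CPM against 22.2 to 37.8 CPM. INSIG1 was at 101 CPM against 5.68 to 27.1 CPM. These 3 were well clear of the other ovaries, whereas genes of lysosomal egress and storage were higher by less. NPC1 and NPC2, which pass sterol out of lysosomes, were 2.64-fold and 2.68-fold above the median of the other libraries, and SOAT1, which esterifies cholesterol for storage, was 2.63-fold above it. MYLIP ran the other way, at 40.1 CPM against 75.2 to 174 CPM. SREBF2 at 45.9 CPM, SCAP at 45.1 CPM, ABCA1 at 171 CPM and NR1H2 at 45.8 CPM all lay within the range of the other 19. In that library 6 of the 8 luteal and steroidogenic genes, STAR among them at 2891 CPM, were above every other ovary library. That library held the remaining genes, CYP17A1 at 2.62 CPM and INHA at 9.42 CPM, below every other month 4 ovary. Its granulosa list of 4 genes summed to 63.5 CPM (0.485 to 892 CPM elsewhere in the ovary), its oocyte list of 5 to 8.81 CPM (3.27 to 579), its macrophage list of 6 to 456 CPM (33.5 to 440), and the 1 adrenal gene matched of 3 stood at 3.09 CPM (0 to 0.122). Their part in the result was not tested, and 1 library allows no test of its own.

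Without that library the enzymes still differed between ovaries of 1 age, most at month 6. In ovary month 6 library 1, 12 of the 17 enzymes were higher than in all of the remaining 18 ovary libraries, against 7.44% of all genes, and the median enzyme stood 2.27-fold above the median of the other ovaries. In ovary month 6 library 2, 12 of the 17 were the lowest of all 20 ovary libraries, against 5.86% of all genes. SQLE, which adds oxygen to squalene and is a control point of the route, was at 142, 16.2, 61.4, 56.2 and 52.6 CPM in month 6 libraries 1 to 5. TM7SF2 was at 81.6, 1.73, 12.9, 13.3 and 18.8 CPM in the same 5. In each case library 1 was the highest and library 2 the lowest. Library 1 also had the highest sum of 5 uterine marker genes of any ovary library (432 CPM, against 74.8 to 345 CPM). EPCAM at 263.6 CPM and PGR at 162.4 CPM made up most of it, with FOXA2 at 5.95 CPM and HOXA10 and HOXA11 at 0 CPM. Its 4 urothelial genes summed to 560 CPM, of which UPK1B made up 559.6 CPM. UPK1A, UPK2 and UPK3A were at most 0.605 CPM each. The part of these genes was not tested. In library 2 the 4 granulosa genes summed to 87.1 CPM, of which the granulosa transcription factor FOXL2 made up 80.2 CPM. FSHR at 2.87 CPM, the follicle hormone AMH at 2.15 CPM and the aromatase gene CYP19A1 at 1.83 CPM were below all 4 other month 6 ovaries, and their part was not tested.

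Ovary day 1 library 4 was high in a different subset. LSS, which closes the sterol ring, was at 6.49, 4.73, 13.2, 50.5 and 12.6 CPM in day 1 libraries 1 to 5. SREBF2 was at 31.6, 17.7, 44.1, 131 and 23.9 CPM, SCAP at 25.3, 28.1, 12.8, 94.6 and 40.5 CPM and DHCR7 at 14.6, 18.9, 15.3, 76.1 and 22.3 CPM in the same order. Library 4 was the highest of the 5 for each of these genes, while its median enzyme lay only 0.0234 above the ovary median on the log2 scale. It held the highest granulosa sum of its age, 573 CPM against a day 1 median of 36.8 CPM, and that link was not tested.

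The remaining enzymes spanned narrower or wider ranges around the same animals. MVK and PMVK, the kinases that phosphorylate mevalonate in turn, ran from 7.51 to 19.9 CPM and from 1.23 to 4.77 CPM over the 19 other ovaries, and from 4.84 to 17.4 CPM and 1.05 to 11.8 CPM over the 20 uterus libraries. MVD, the decarboxylase that follows them, ran from 3.71 to 45.4 CPM and from 5.04 to 43.8 CPM. FDFT1, which joins farnesyl units into squalene, ran from 42.8 to 142 CPM in those ovaries and from 31.4 to 129.5 CPM in the uterus. Late in the route, the dehydrogenase NSDHL, the isomerase EBP and the desaturase SC5D ran from 25.99 to 107, 2.57 to 11.8 and 56.8 to 203 CPM in those ovaries. In the uterus they ran from 17.1 to 54.2, 1.43 to 9.77 and 54.6 to 140.2 CPM. Of the 7 genes 6 had their highest uterine value in month 4 library 2, PMVK having it in month 6 library 2.

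**Figure D2:**
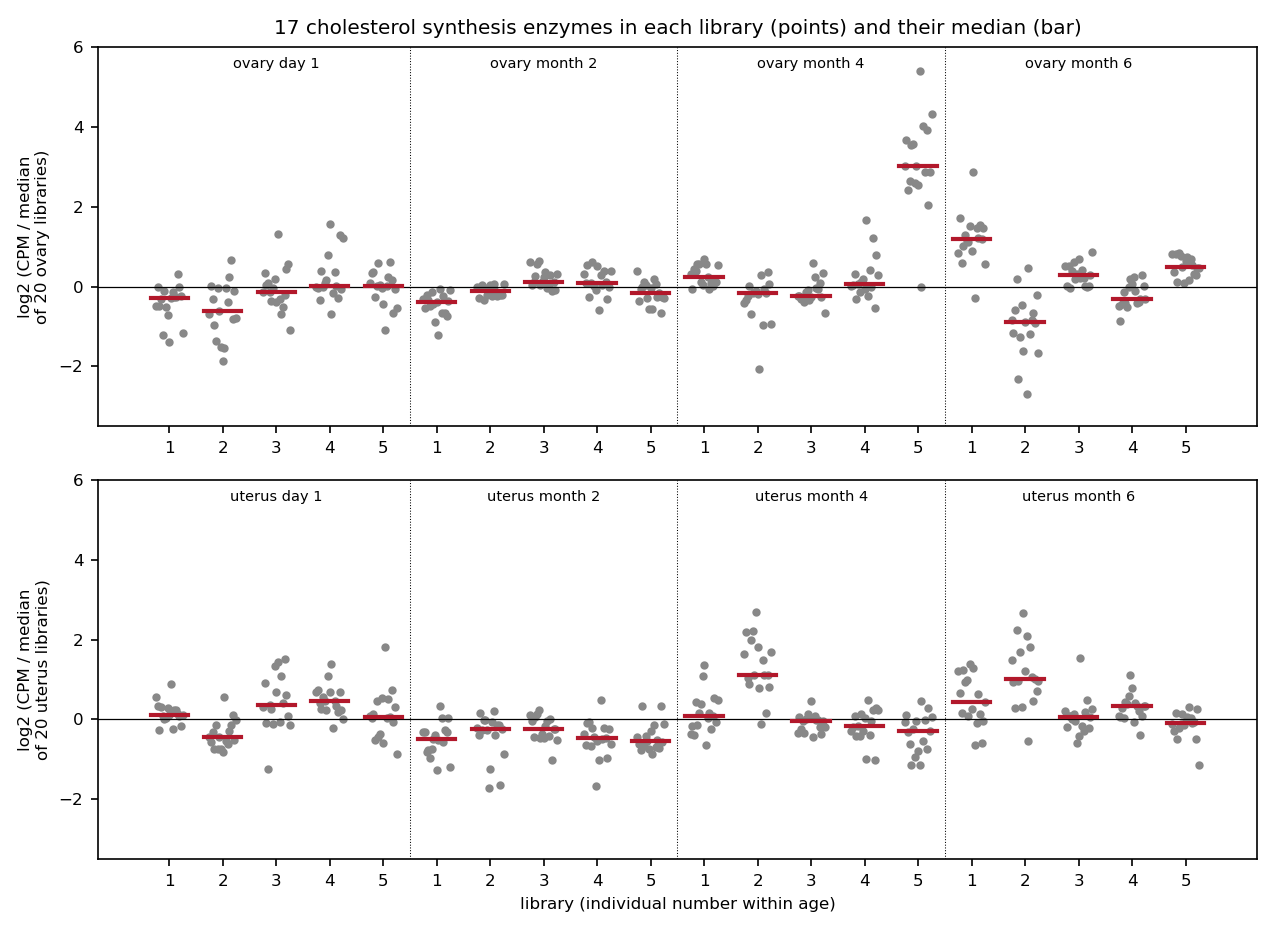
Each point is 1 of the 17 synthesis enzymes in 1 library, as the log2 ratio of its CPM to its median over the 20 libraries of the organ (upper panel ovary, lower panel uterus); the red bar is the median of the 17. The bar stands at 3.03 in ovary month 4 library 5, at 1.18 and -0.894 in ovary month 6 libraries 1 and 2, and at 1.12 and 1.02 in uterus month 4 library 2 and month 6 library 2.

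The uterus also had animals in which the route ran high. In uterus month 4 library 2, 12 of the 17 enzymes had their highest value of the 20 uterus libraries, against 4.86% of all genes. That library and uterus month 6 library 2 held the highest pair of values for 10 of the 17, against 1.83% of all genes. SQLE was at 45.1, 136, 21.6, 17.4 and 20.6 CPM in uterus month 4 libraries 1 to 5 and at 55.4, 133, 13.98, 45.9 and 19.1 CPM in those of month 6. HMGCS1 was at 116, 589, 136, 114 and 139 CPM at month 4 and at 206, 249, 113, 135 and 107 CPM at month 6. Library 2 was the highest of its age for both genes at both ages. In month 4 library 2 the exporter ABCA1, at 43.5 CPM, and MYLIP, at 40.5 CPM, had the lowest values of the 20 uterus libraries, where the others ran from 83.8 to 287 CPM and from 40.6 to 158 CPM. Month 6 library 2 did not share this, with ABCA1 at 287 CPM, the highest of the uterus. It had instead the highest uterine values of SOAT1, 264 CPM against at most 104 CPM, and of NPC1, 109 CPM against at most 48.2 CPM. The sum of 5 uterine marker genes was 582 CPM in the former and 790 CPM in the latter, inside the range of the other libraries. Of those 5 genes, month 6 library 2 had the highest uterine values of the epithelial genes EPCAM and FOXA2. EPCAM was at 449.6 CPM against at most 244.1 CPM, and FOXA2 at 38.7 CPM against at most 19.6 CPM. HOXA10, at 30.6 CPM, and PGR, at 247.7 CPM, were in that library the lowest of month 6. HOXA11 was at 23.2 CPM there, against 18.2 to 68.5 CPM in the other month 6 uteri. The part of these genes was not tested.

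The spread between animals of a group was wider for the enzymes than for most genes. Within groups the median SD of the 17 enzymes was 0.97 on the log2 scale in the ovary, against 0.476 for all genes, and 0.612 against 0.417 without the 2 ovary libraries that stand apart. In the uterus it was 0.653 against 0.45. INSIG1 and INSIG2, which share the task of retaining SCAP, differed in this respect. INSIG1 ran from 5.68 to 101 CPM over the 20 ovary libraries, or to 27.1 CPM without month 4 library 5, and from 2.65 to 37.7 CPM over the 20 uterus libraries. INSIG2 ran from 4.44 to 10.6 CPM in the ovary and from 4.39 to 10.3 CPM in the uterus. The highest over the lowest value was 17.8-fold and 14.2-fold for INSIG1 and 2.39-fold and 2.34-fold for INSIG2.

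Age was compared within each organ by edgeR's quasi-likelihood test, with p-values adjusted over all genes tested by the Benjamini-Hochberg method and a call at an adjusted p under 0.05. In the ovary the synthesis enzymes did not pass the test between any of the ages compared. From day 1 to month 2, 0 of the 33 members were called, against 0.00508% of 19671 genes, with 1 member at an unadjusted p under 0.05 and 0 called by DESeq2. From month 2 to month 4, 0 members were called, against 0.0% of all genes. There 16 members had an unadjusted p under 0.05, 12 of them enzymes, and DESeq2 called 0. From month 4 to month 6, 0 members were called, against 0.0% of all genes, with 7 members at an unadjusted p under 0.05 and 1 called by DESeq2, ABCG5. From day 1 to month 6, 1 member was called, VLDLR, against 0.0864% of all genes, and DESeq2 called 2, VLDLR and ABCG5. All these shares are of edgeR calls at an adjusted p under 0.05. They are no background for the unadjusted counts, nor for DESeq2, which called more of all genes in each comparison.

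The size of the enzyme changes in the ovary turned on month 4 library 5. From month 2 to month 4 the median log2 fold change of the 17 enzymes was 1.43, with 17 of 17 positive, against 0.0434 over all genes. Without month 4 library 5 it was 0.0808, with 13 of 17 positive, against 0.0117 over all genes. From month 4 to month 6 it was -0.897 with that library and 0.297 without it. HMGCS1 shows the values behind this. In the ovary it was at 293, 298, 375, 290.4 and 374 CPM at day 1, 202, 241, 301, 313 and 230.2 CPM at month 2, 285, 234, 251, 303 and 3759 CPM at month 4 and 972, 131, 301, 162 and 383 CPM at month 6, so 1 of the 5 month 4 libraries was far above every other. Its month 4 mean was 966 ± 1561 CPM (SD, n = 5) with library 5 and 268 ± 31.2 CPM (n = 4) without it. SQLE was at 30.4, 17.4, 56.5, 85.6 and 47.8 CPM at day 1, 26.8, 45.6, 53.8, 46.8 and 33.4 CPM at month 2, 51.1, 45.6, 39.1, 56.3 and 403 CPM at month 4 and 142, 16.2, 61.4, 56.2 and 52.6 CPM at month 6, and its month 4 mean was 119 ± 159 CPM with library 5 and 48.04 ± 7.35 CPM without. Apart from that library the values of the 4 ages overlapped for both genes. From day 1 to month 6 all 17 enzymes had a positive fold change, with a median of 0.43 against -0.03 over all genes, and 0 were called. Without month 6 library 1 the median was 0.14, with 12 of 17 positive.

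Carriers and storage genes of the ovary showed the same dependence on 1 library. SCARB1 was at 11.3, 11.5, 15.4, 36.3 and 12.6 CPM at day 1, 16.4, 22.6, 17.2, 11.3 and 13.8 CPM at month 2, 13.4, 10.7, 8.71, 16.3 and 536 CPM at month 4 and 12.6, 5.54, 20.3, 15.8 and 17.4 CPM at month 6, and its change from month 2 to month 4 was 2.87 ± 0.95 (log2, SE, adjusted p = 0.549) with month 4 library 5 and -0.35 (adjusted p = 0.881) without it. STARD4 was at 25.2 ± 1.64 CPM at month 2, and at month 4 62.6 ± 76.3 CPM with library 5 and 28.5 ± 1.74 CPM without. INSIG1 was at 9.76 ± 2.01 CPM at month 2, and at month 4 30.1 ± 39.8 CPM with library 5 and 12.4 ± 1.998 CPM without. NPC1 (month 4 28.8 ± 20.6 CPM with and 19.8 ± 4.01 CPM without), NPC2 (141 ± 86.8 and 103 ± 12.7 CPM) and SOAT1 (80.8 ± 45.2 and 62.4 ± 21.4 CPM) behaved likewise. None of these 6 genes was called between ages. For the regulators and ABCA1 no age difference passed. SREBF2 was at 49.6 ± 46.5 CPM at day 1 and 51.1 ± 20.98 CPM at month 6. NR1H3 was at 30.03 ± 18.6 and 25.8 ± 6.46 CPM, and ABCA1 at 133 ± 21.2 and 133 ± 49.6 CPM, differences within the spread between animals.

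VLDLR, a receptor that takes up triglyceride-rich lipoproteins and in egg-laying species yolk, fell in the ovary with age. It was at 64.05, 67.6, 72.5, 35.9 and 49.9 CPM at day 1, 37.4, 51.8, 28.8, 29.1 and 27.3 CPM at month 2, 25.8, 31.1, 30.6, 31.5 and 46.5 CPM at month 4 and 27.9, 16.1, 25.4, 21.6 and 25.3 CPM at month 6. All 5 month 6 values lay below all 5 day 1 values, and the values of months 2 and 4 overlapped those of month 6. Month 2 also overlapped day 1, whereas at month 4 library 5 alone reached into the day 1 range and the other 4 values lay below it. The change from day 1 (57.99 ± 14.9 CPM, SD, n = 5) to month 6 (23.3 ± 4.59 CPM) was -1.28 ± 0.22 (log2, SE), with an adjusted p = 0.0313 in edgeR. Without month 4 library 5 it was -1.28 with an adjusted p = 0.0223. The call was lost with only the groups compared in the fit (-1.29, adjusted p = 0.235), and without day 1 library 1, 2 or 5 or month 6 library 2, 3, 4 or 5, with log2 changes of VLDLR from -1.35 to -1.18 and adjusted p from 0.0538 to 0.107. MYLIP, whose product marks VLDLR for degradation, did not pass over the same interval. It was at 123, 171, 80.3, 137 and 174 CPM at day 1, 148, 115, 127, 151 and 107 CPM at month 2, 106, 112, 85.1, 79.6 and 40.1 CPM at month 4 and 75.2, 111, 79.2, 111 and 91.2 CPM at month 6, with a change from day 1 to month 6 of -0.51 ± 0.24 (adjusted p = 0.351). Without day 1 library 3 and month 4 library 5, MYLIP passed the test at -0.65 ± 0.17 (adjusted p = 0.0295), and VLDLR was at -1.19 ± 0.21 (adjusted p = 0.00689). The month 4 means of VLDLR were 33.1 ± 7.84 CPM with library 5 and 29.7 ± 2.66 CPM without, and those of MYLIP were 84.5 ± 28.3 and 95.6 ± 15.7 CPM.

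ABCG5, which pairs with a partner to form the transporter that expels plant sterols and cholesterol, was scarce in both organs and had its lowest values in the ovary at month 6. Ovary counts were 66 over the 5 day 1 libraries, 45 at month 2, 40 at month 4 and 0 at month 6, where all 5 libraries had 0. Uterus counts were 11, 15, 20 and 108 over the 5 libraries of the same ages. Pooled ABCG5 levels were set against the level that 3 counts over the month 6 ovary group would give. The ratio was 20.7-fold in the ovary at day 1, 14.4-fold at month 2 and 12.5-fold at month 4. It was 18.7-fold at day 1 without library 4. Without month 2 library 4 it was 9.98-fold, and without month 4 library 1 it was 9.07-fold. In the uterus at month 6 the ratio to that same level was 33.9-fold. Of the 108 uterus counts at month 6, 61 came from library 3, without which the ratio was 18.7-fold, while library 4 had 0. The day 1 to month 6 difference in the ovary had an adjusted p = 0.0548 in edgeR and was called by DESeq2. It passed in edgeR without day 1 library 3 (adjusted p = 0.0239) or day 1 library 4 (adjusted p = 0.0422). The 3-count level allows for counting error in the month 6 ovaries only, not for that of the other groups or for spread between animals.

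In the uterus 0 of the 32 members tested were called between any of the ages compared in edgeR, ABCG5 being too low for the uterus fit. From day 1 to month 2 the background was 0.016% of 18789 genes, 4 members had an unadjusted p under 0.05, and DESeq2 called 2. From month 2 to month 4 it was 0.0%, with 8 members at an unadjusted p under 0.05 and 0 called by DESeq2. From month 4 to month 6 it was 0.0%, with 2 and 0. From day 1 to month 6 it was 1.59%, with 4 members at an unadjusted p under 0.05 and 2 called by DESeq2, NPC1 and NR1H2. Here too the background is of edgeR calls at an adjusted p under 0.05. It cannot be set against the unadjusted counts, nor against DESeq2, which called more of all genes in each comparison.

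In the uterus most enzymes had lower values at month 2 than at day 1 and month 4, though none passed the test in edgeR. From day 1 to month 2, 15 of the 17 had a negative fold change, with a median of -0.55 against -0.02 over all genes. From month 2 to month 4 all 17 were positive, with a median of 0.70 against 0.04. Without uterus month 4 library 2 that median was 0.19, with 13 of 17 positive. TM7SF2 was at 24.7, 19.8, 36.01, 35 and 47.3 CPM at day 1, 9.32, 12.8, 11.8, 6.604 and 7.29 CPM at month 2, 8.56, 23.2, 9.89, 6.76 and 6.03 CPM at month 4 and 32.8, 56.8, 38.8, 12.8 and 13.9 CPM at month 6 in the uterus. Every month 2 value lay below every day 1 value, and the change was -1.80 ± 0.42 (log2, SE, adjusted p = 0.13 in edgeR, 0.00416 in DESeq2). HSD17B7, a reductase of the sterol 3-keto group, changed by -1.14 ± 0.30 over the same interval (adjusted p = 0.164 in edgeR), the other DESeq2 call. SQLE was at 25.7, 12.6, 53.4, 44.8 and 30.5 CPM at day 1 and 16.1, 6.37, 16.4, 6.604 and 12.6 CPM at month 2 (-1.56 ± 0.63, adjusted p = 0.338). Its groups overlapped, with day 1 library 2 below the highest month 2 values. HMGCS1 was at 163, 87.98, 245, 216 and 134 CPM at day 1 and 104, 98.7, 126, 82.8 and 85.3 CPM at month 2 (-0.80 ± 0.41, adjusted p = 0.444), again with an overlap.

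Genes of uptake, movement and export in the uterus gave 2 values close to the threshold. NPC1 was at 21.7, 22.03, 22.8, 25.1 and 15.3 CPM at day 1, 16.8, 23.4, 22.9, 22.3 and 35.2 CPM at month 2, 44.6, 31.1, 48.2, 31.1 and 25.9 CPM at month 4 and 38.7, 109, 37.3, 21.6 and 37.1 CPM at month 6. Of the month 6 values 4 were above every day 1 value, and the change from day 1 was 1.16 ± 0.32 (log2, SE, adjusted p = 0.076). It passed without month 6 library 4 (1.35, adjusted p = 0.0439), and was 0.64 (adjusted p = 0.212) without month 6 library 2. NR1H2, a liver X receptor, was at 26.2 ± 2.15 CPM at day 1 and 39.6 ± 8.62 CPM at month 6 and did not pass (0.57 ± 0.16, adjusted p = 0.0702, or 0.0499 without month 6 library 3). SOAT1 was at 60.1, 55.98, 104, 53.5 and 58.5 CPM at day 1 and 82.96, 264, 49.2, 45.7 and 50.1 CPM at month 6. Its change was 0.53 (adjusted p = 0.503) with month 6 library 2 and -0.25 (adjusted p = 0.679) without it. INSIG1 was at 6.503 ± 2.13, 3.65 ± 0.8897, 10.9 ± 10.3 and 14.1 ± 13.4 CPM over the 4 ages. ABCA1 (172 ± 55.6 CPM at day 1 and 192 ± 84.6 CPM at month 6), NR1H3 (26.3 ± 6.09 and 30.4 ± 2.73 CPM), SREBF2 (39.9 ± 6.25 and 38.3 ± 10.96 CPM), SCARB1 (9.78 ± 3.98 and 8.78 ± 1.83 CPM) and STARD4 (24.5 ± 2.78 and 30.1 ± 11.04 CPM) did not pass at any age. ABCG1, a sterol exporter to HDL, ran from 0.938 to 38.4 CPM in the ovary and from 0.761 to 33.01 CPM in the uterus, with its highest values in library 1 of month 6 in both organs.

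**Figure D3:**
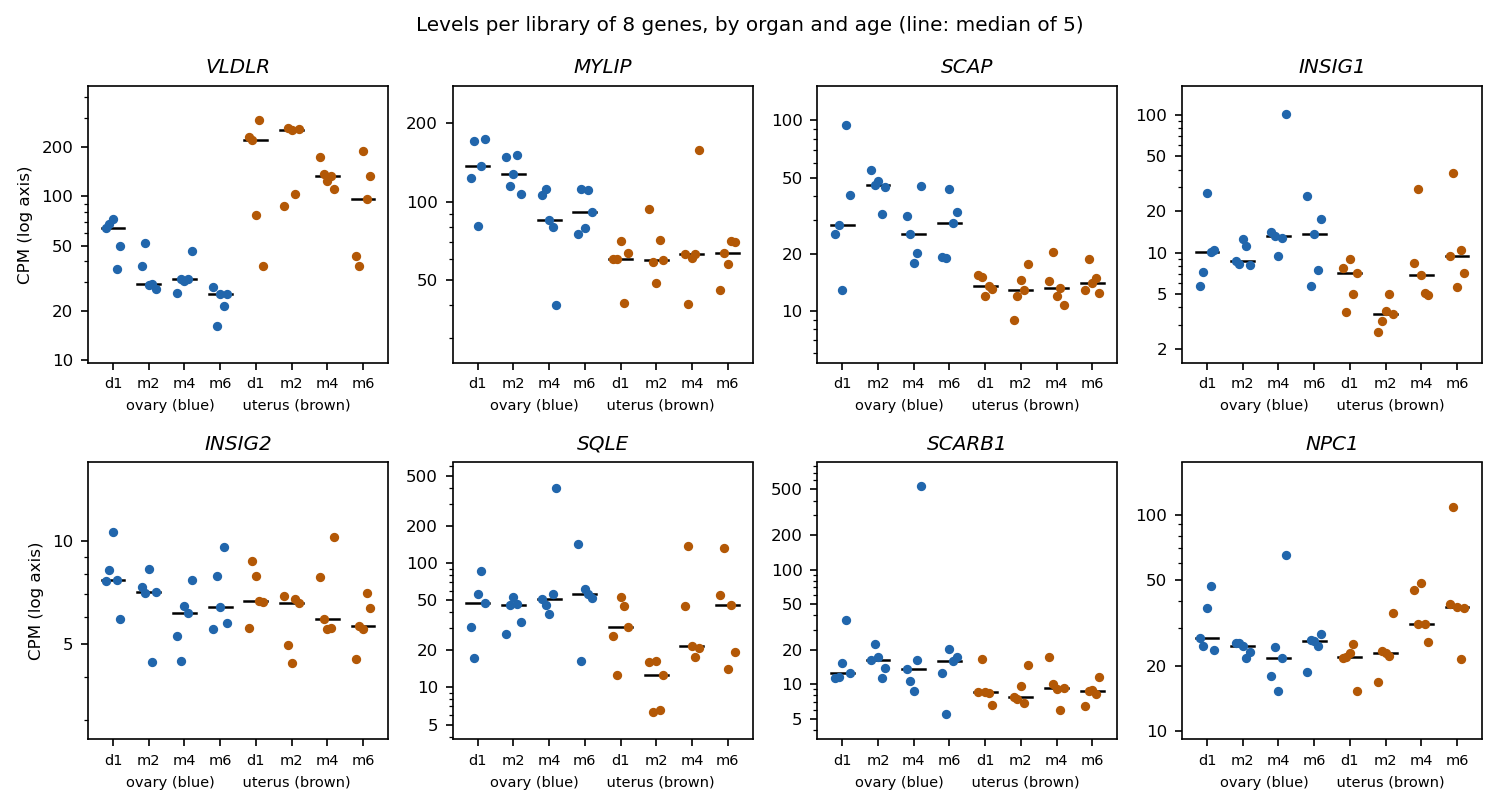
CPM of 8 genes in each library (points, log axis) at day 1 (d1) and months 2, 4 and 6 (m2, m4, m6), ovary in blue and uterus in brown; the line is the median of the 5 libraries. VLDLR was lower in the ovary than in the uterus at months 2, 4 and 6 without overlap and fell from 57.99 ± 14.9 to 23.3 ± 4.59 CPM (SD, n = 5) in the ovary, and SCARB1 reached 536 CPM in 1 month 4 ovary.

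The organs were then compared at each age, in a fit of all 40 libraries. VLDLR was lower in the ovary at all 4 ages and was called each time. In the uterus it was at 230, 219, 77.2, 293 and 37.7 CPM at day 1, 87.03, 259, 253, 103 and 258 CPM at month 2, 173, 136, 124, 134 and 110.1 CPM at month 4 and 42.9, 37.6, 189, 96.7 and 133 CPM at month 6. Only at day 1 did the organs overlap, where uterus library 5 lay among the ovaries. The log2 ratio of ovary to uterus was -1.56 ± 0.41 at day 1 (SE, adjusted p = 0.00596), -2.46 ± 0.42 at month 2 (adjusted p = 0.000106), -2.03 ± 0.41 at month 4 (adjusted p = 0.00129) and -2.10 ± 0.41 at month 6 (adjusted p = 0.00077). Without ovary month 4 library 5 the month 4 ratio was -2.19 ± 0.45 (adjusted p = 0.00166). The 4 calls stood with any 1 library of the groups compared left out, but that of day 1 was lost with only the groups compared in the fit (-1.55, adjusted p = 0.0795). It was also lost with a block on individual number (-1.25, adjusted p = 0.064 in edgeR).

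SCAP was called higher in the ovary at all 4 ages, and MYLIP at day 1 and month 2. SCAP was at 25.3, 28.1, 12.8, 94.6 and 40.5 CPM at day 1, 55.1, 45.9, 48.3, 32.4 and 44.5 CPM at month 2, 31.6, 25.2, 17.9, 20.01 and 45.1 CPM at month 4 and 19.3, 18.99, 43.5, 28.97 and 33.01 CPM at month 6 in the ovary. In the uterus SCAP was at 15.5, 15.1, 11.97, 13.4 and 13.02 CPM at day 1, 8.93, 11.9, 14.5, 12.9 and 17.6 CPM at month 2, 14.3, 20.4, 12.01, 13.2 and 10.8 CPM at month 4 and 12.9, 18.7, 13.9, 14.8 and 12.4 CPM at month 6, with every uterus below the ovaries at months 2 and 6. Its log2 ratio was 1.54 ± 0.33 at day 1 (adjusted p = 0.000933) and 1.78 ± 0.33 at month 2 (adjusted p = 0.000241), and the groups did not overlap at months 2 and 6. At month 4 it was 0.99 ± 0.32 (adjusted p = 0.0364) and lost the call without ovary month 4 library 5 (0.74, adjusted p = 0.134). The month 4 call was also lost without ovary library 1 or uterus library 1, 3, 4 or 5 (adjusted p from 0.0642 to 0.0845), and the month 6 one (0.98 ± 0.32, adjusted p = 0.0411) without ovary library 3, 4 or 5 or uterus library 1, 3, 4 or 5 (adjusted p from 0.0602 to 0.154). At day 1 SCAP was 0.95 without ovary library 4, still called. MYLIP was at 60.3, 60.4, 70.8, 40.6 and 63.3 CPM at day 1, 93.7, 58.8, 48.7, 70.98 and 59.6 CPM at month 2, 62.98, 40.5, 60.7, 63.1 and 158 CPM at month 4 and 45.8, 63.2, 57.5, 70.8 and 70.02 CPM at month 6 in the uterus. Its log2 ratio of ovary to uterus was 1.21 ± 0.27 at day 1 (adjusted p = 0.00151) and 0.97 ± 0.27 at month 2 (adjusted p = 0.00961), with no overlap of the groups at either age. At month 4 it was 0.13 ± 0.27 (adjusted p = 0.783) with all libraries, 0.31 (adjusted p = 0.476) without ovary month 4 library 5, and 0.78 ± 0.20 (adjusted p = 0.00659) without the 3 libraries that stand apart. Uterus library 5 of month 4, which stands apart, held 158 CPM. At day 1 and month 2 the organ with more MYLIP transcript was the one with less VLDLR transcript, and a link between them was not tested.

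Across the synthesis route most fold changes favoured the ovary. The median log2 ratio of ovary to uterus over the 17 enzymes was 0.44 at day 1 with 14 positive (0.19 with 9 positive without ovary day 1 library 4), 1.14 at month 2 with 14 positive, 1.81 at month 4 with 17 positive, and 0.55 at month 6 with 15 positive (0.33 with 11 positive without ovary month 6 library 1). At month 4 it was 0.35, with 13 positive, without ovary library 5. Over all genes the median ratio lay between -0.01 and 0.07. At day 1, 5 of the 33 members were called, 4 higher and 1 lower in the ovary, against 17.8% of 20518 genes. They were SCAP, MYLIP, VLDLR, LBR (0.53 ± 0.18, adjusted p = 0.0324) and NR1H2 (0.63 ± 0.21, adjusted p = 0.0382). At month 2, 7 were called, 6 higher, against 20.2% of all genes, so the share of members was near the background at both ages. Of the enzymes these were DHCR7 (2.24 ± 0.68, adjusted p = 0.0174), LSS (1.77 ± 0.56, adjusted p = 0.0221), ACAT2, the cytosolic thiolase that starts the route (1.41 ± 0.50, adjusted p = 0.0401), and SQLE (1.83 ± 0.67, adjusted p = 0.0475). With ovary month 4 library 5 left out, 13 were called at month 2, and 9 of them were enzymes, each higher in the ovary. That library is in neither group compared at month 2, but the groups of the fit share their estimate of the spread. The 20.2% is of the fit with all libraries, and the share without that library is not reported here. DHCR7 at month 2 was 30.8, 34.2, 40.5, 42.8 and 26.7 CPM in the ovary and 4.95, 6.24, 7.92, 7.41 and 10.5 CPM in the uterus. SQLE was 26.8, 45.6, 53.8, 46.8 and 33.4 CPM in the ovary and 16.1, 6.37, 16.4, 6.604 and 12.6 CPM in the uterus. In both genes every ovary was above every uterus. At that age 14 members did not overlap with the ovary above, 10 of them enzymes, and VLDLR did not overlap with the ovary below, against 24.2% of all genes without overlap.

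At day 1, by the same count, 6 members did not overlap, all higher in the ovary, against 7.57% of all genes: HMGCS1, FDPS, LBR, DHCR7, MYLIP and ABCG5. For ABCG5 this rested on few counts, with 8 in the lowest day 1 ovary and 5 in the highest day 1 uterus. HMGCS1 at day 1 was 293, 298, 375, 290.4 and 374 CPM in the ovary and 163, 87.98, 245, 216 and 134 CPM in the uterus (0.95 ± 0.59, adjusted p = 0.305). The call of LBR at day 1 was lost without ovary library 2 or 5 or uterus library 1, 2 or 4 (adjusted p from 0.0589 to 0.102), and that of NR1H2 without ovary library 1, 2 or 5 or uterus library 1, 2, 4 or 5 (adjusted p from 0.0598 to 0.184). At month 2 that of ACAT2 was lost without ovary library 3, 4 or 5 or uterus library 1, 2, 4 or 5 (adjusted p from 0.066 to 0.0884), that of LSS without uterus library 1 or 2 (0.057 and 0.0551), and that of SQLE without any library of the groups but ovary library 1 (from 0.0555 to 0.11). The calls of DHCR7, SCAP, MYLIP and VLDLR at month 2 stood with any 1 library left out.

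At month 4, 14 of the 33 members were called, 13 higher and 1 lower in the ovary, against 13.9% of all genes, but 13 of these calls were lost without library 5. The 10 enzymes among them were MSMO1 (2.94 ± 0.66, adjusted p = 0.00291), DHCR7 (3.15 ± 0.70, adjusted p = 0.00291), HSD17B7 (2.28 ± 0.53, adjusted p = 0.00415), NSDHL, TM7SF2, ACAT2, HMGCS1, FDPS, MVK and MVD. SCARB1 (3.51 ± 0.75, adjusted p = 0.00201), STARD4 (1.19 ± 0.36, adjusted p = 0.0244), SCAP and VLDLR were the rest. All of the 14 but VLDLR also lost the call with a block on individual number. Without ovary month 4 library 5, 2 members were called, VLDLR and NPC1, both lower in the ovary. NPC1 was then at -0.87 ± 0.29 (adjusted p = 0.0475). The log2 ratio of MSMO1 became 0.85 (adjusted p = 0.203), that of DHCR7 0.83 (adjusted p = 0.248), that of HSD17B7 0.65 (adjusted p = 0.232), that of SCARB1 0.25 (adjusted p = 0.695) and that of STARD4 0.05 (adjusted p = 0.902). Without uterus month 4 library 2 instead, the animal with high enzymes, 18 members were called. With uterus month 4 library 1 or 3 left out the count was 8 or 9. The 13.9% is of the fit with all libraries and is no background for counts with a library left out. At month 4 only VLDLR did not overlap between the organs, against 5.95% of all genes.

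**Figure D4:**
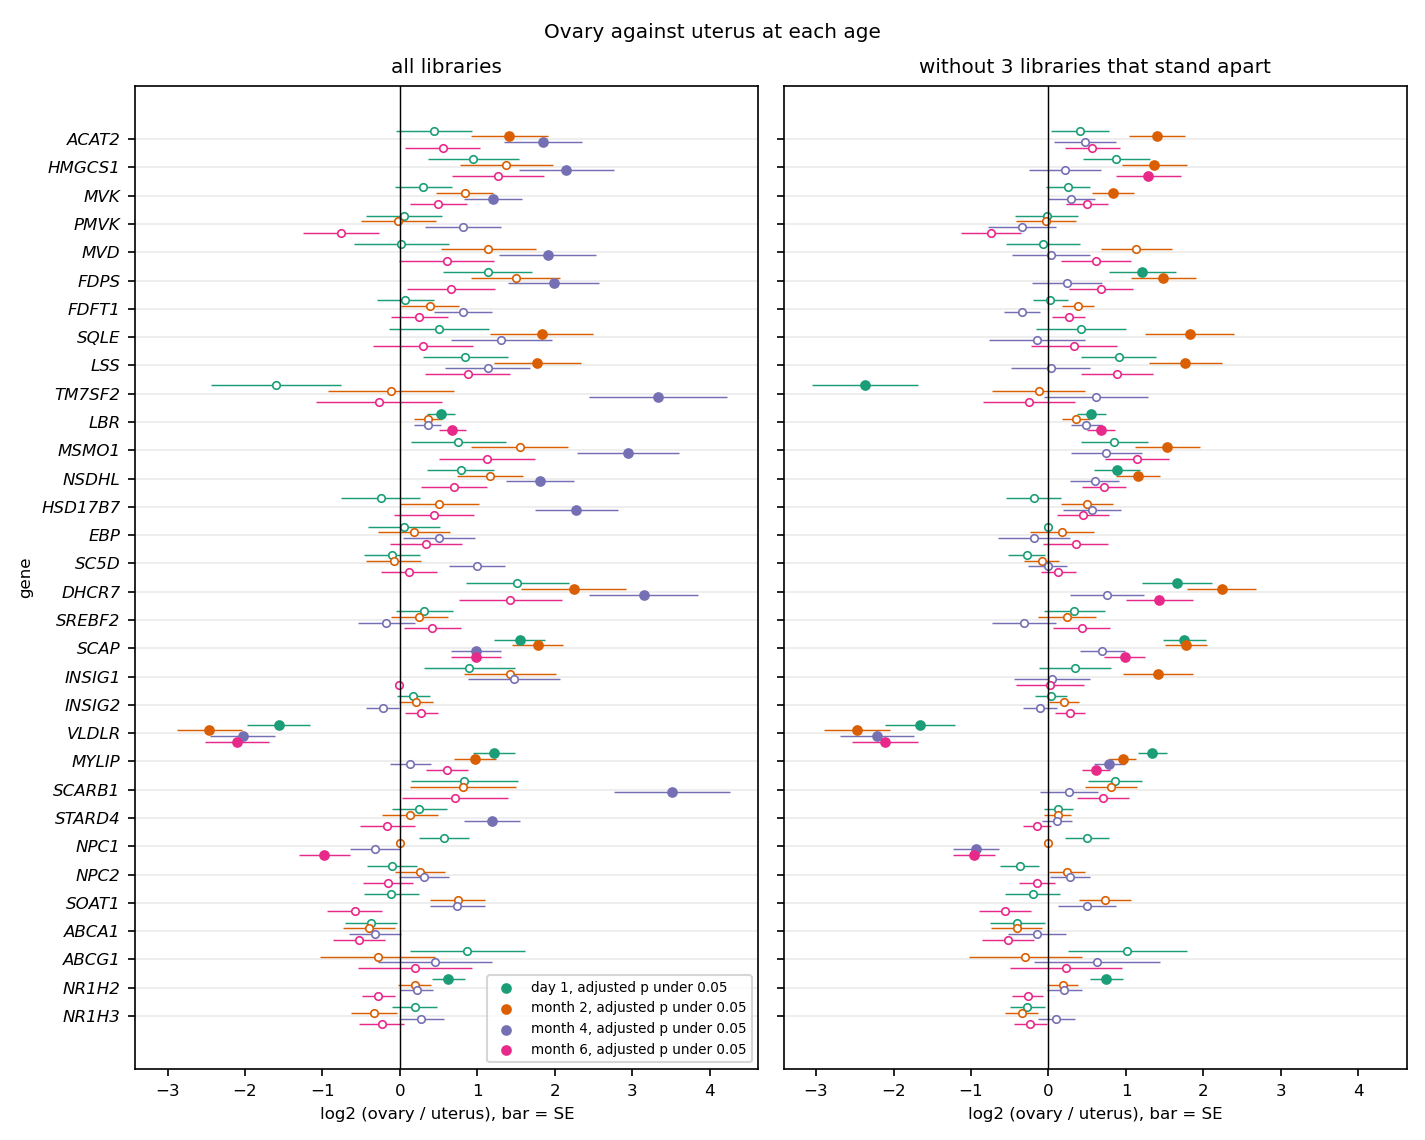
Log2 ratio of ovary to uterus (horizontal axis, bar = SE) for 32 genes at 4 ages, with all libraries on the left and without the 3 libraries that stand apart on the right; filled points have an adjusted p under 0.05, no bar is drawn where the ratio is within 0.01 of 0, and ABCG5 is left out. VLDLR is on the negative side at every age in both panels, and the month 4 ratios of the enzymes shrink on the right, that of DHCR7 from 3.15 to 0.76.

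At month 6, 5 members were called, 2 higher and 3 lower in the ovary, against 11.7% of all genes. SCAP and LBR (0.68 ± 0.18, adjusted p = 0.00917) were higher, and VLDLR, NPC1 and ABCG5 lower. LBR at month 6 was 138, 231, 224, 154 and 189 CPM in the ovary and 78.2, 83.7, 109.6, 163 and 151 CPM in the uterus, so the organs overlapped. NPC1 at month 6 was 18.8, 26.4, 25.9, 24.6 and 27.9 CPM in the ovary and 38.7, 109, 37.3, 21.6 and 37.1 CPM in the uterus (-0.98 ± 0.33, adjusted p = 0.0462). Without uterus month 6 library 2 its ratio was -0.45 (adjusted p = 0.43), and the NPC1 call was also lost without any 1 of the 5 ovary libraries (adjusted p from 0.0681 to 0.0978). SCAP and MYLIP without overlap above, and VLDLR below, made 3 members whose organs were apart at month 6, a share near the 8.86% of all genes. The change from day 1 to month 6 was tested between the organs as an interaction, and 1 member passed, ABCG5 (adjusted p = 0.0324), against 0.234% of all genes. That call was lost without ovary month 6 library 1, 3, 4 or 5 or uterus day 1 library 2 or 3 (adjusted p from 0.0575 to 0.0694). NPC1 followed, at -1.55 ± 0.46 (adjusted p = 0.135), and passed without the 3 libraries that stand apart (-1.46 ± 0.39, adjusted p = 0.0465), while without uterus month 6 library 2 it was -1.02 (adjusted p = 0.382). Without ovary month 4 library 5, 6 members were called at day 1, with DHCR7 added, and 7 at month 6. The share of all genes called in that fit is not reported here. With only the groups compared in the fit, the calls of SCAP, VLDLR, LBR and NR1H2 at day 1, of all but VLDLR at month 4 and of LBR and NPC1 at month 6 were lost. A block on individual number took away those of LBR, VLDLR and NR1H2 at day 1 and of SCAP and NPC1 at month 6.

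A further 28 genes of the pathway, outside the 33, were read beside them. Between ages 0 of them were called in either organ by edgeR. In the ovary 0, 4, 2 and 1 of them had an unadjusted p under 0.05 from day 1 to month 2, month 2 to 4, month 4 to 6 and day 1 to 6, and in the uterus 5, 2, 6 and 0, where DESeq2 called 0 except for 1 in the uterus from day 1 to month 2. The share of all genes at that unadjusted threshold is not reported here. Between the organs 5 of the 28 were called at day 1 (3 higher and 2 lower in the ovary), 9 at month 2 (5 and 4), 6 at month 4 (5 and 1) and 4 at month 6 (2 and 2), shares set against the same backgrounds of 17.8, 20.2, 13.9 and 11.7%. LRP2, the endocytic receptor megalin, was chosen here after its values were seen. It was lower in the ovary at all 4 ages, with log2 ratios from -3.83 ± 0.955 at month 2 (adjusted p = 0.00412) to -3.09 ± 0.92 at month 6 (adjusted p = 0.0234). The LRP2 calls at day 1 and month 2 stood with any 1 library left out. That of month 4 was lost without uterus library 5 (-2.09, adjusted p = 0.1) or ovary library 1, and that of month 6 without uterus library 2 (-2.49, adjusted p = 0.0876) or ovary library 2, 3 or 5. LRP8, a relative of VLDLR also chosen so, had log2 ratios of 1.14 ± 0.61 at day 1 (adjusted p = 0.217), 2.11 ± 0.63 at month 2 (adjusted p = 0.0149), 2.45 ± 0.63 at month 4 (adjusted p = 0.0087) and 1.78 ± 0.62 at month 6 (adjusted p = 0.0561). It was at 16.7, 10.2, 20.5, 101.2 and 25.5 CPM in the month 4 ovaries, so library 4 stood far above the rest, and without that library LRP8 did not pass at month 4 (1.58, adjusted p = 0.0746). With only the groups compared in the fit, LRP2 at months 4 and 6 and LRP8 at month 4 did not pass either.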

How the data were processed

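The deposited table holds counts per gene for 40 libraries, which the authors made from reads. Per the submitters' processing notes the tools included RSEM 1.3.0, StringTie 1.3.3b, HISAT2 and fastp 0.23.1. Genome build, strand setting and handling of multiply mapped reads: not given in the sources used here. Of 30049 rows, 28910 carry an NCBI gene number, all matched to a RefSeq symbol, and 1139 are assembled loci. Per-library totals run from 31925520 to 62703770 counts.

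edgeR 4.0.16 in R 4.3.3 was run on the deposited counts with TMM scaling, a filter on low counts and the quasi-likelihood test, in 1 fit for each organ and 1 of both, with p-values adjusted over all genes kept. All 33 members were kept in the ovary and the joint fit and 32 in the uterus fit. The fit was tested on simulated data. DESeq2 1.42.0, RLE scaling, no filter, a block on individual number and leaving out libraries were alternatives. CPM are on TMM-scaled library sizes over all 40 libraries, and SE is the log2 fold change over the root of F. Libraries were taken as separate animals from their labels.

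The members and all lists were chosen with earlier results of these data known. Full values go to members called, at most 6 a comparison, and to 12 reference genes of the route. Not all genes that this rule could name are reported here.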

Additional observations from a re-analysis of the deposited data

Results flagged for a closer look

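A library was marked where its distance from the nearest of the other 4 of its group filled more of the group's range than Dixon's 95% value allows. Chance marks about 1 in 20 groups of independent, normally distributed values, and 59 of the 264 gene and group pairs were marked. The rule was applied to CPM without a log scale, and the genes moved together, so these counts do not measure an excess. No explanation of these values was tested.

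In ovary month 4 library 5, 23 genes were marked, with values in CPM of ACAT2 at 363.8, HMGCS1 at 3759, MVK at 59.75, PMVK at 14.91, MVD at 217.6, FDPS at 660.7, FDFT1 at 392.3 and SQLE at 403.1. Further genes of that library were LSS at 100.6, TM7SF2 at 472.1, MSMO1 at 2701, NSDHL at 340.6, HSD17B7 at 226.4, EBP at 20.05, SC5D at 532.3 and DHCR7 at 649.3. The last of them were INSIG1 at 101.2, VLDLR at 46.47, SCARB1 at 536.4, STARD4 at 199.1, NPC1 at 65.11, NPC2 at 295.2 and NR1H3 at 55.38. In uterus month 4 library 2, 11 genes were marked, with values in CPM of ACAT2 at 71.98, HMGCS1 at 588.8, MVK at 17.39, MVD at 43.81, FDPS at 126, SQLE at 136.3, TM7SF2 at 23.18, MSMO1 at 192.3, NSDHL at 54.16, DHCR7 at 36.79 and INSIG1 at 29.06. In ovary month 6 library 1, 5 genes were marked, with values in CPM of PMVK at 4.774, TM7SF2 at 81.57, HSD17B7 at 44.16, SC5D at 203.1 and STARD4 at 36.9. In ovary day 1 library 4, 4 genes were marked, with values in CPM of LSS at 50.45, DHCR7 at 76.1, SREBF2 at 130.9 and SCARB1 at 36.27. In ovary day 1 library 3, 4 genes were marked, with values in CPM of TM7SF2 at 28.22, SC5D at 108.7, INSIG1 at 27.11 and NR1H3 at 62.4. In uterus month 6 library 2, 5 genes were marked, with values in CPM of MSMO1 at 238.5, EBP at 9.126, INSIG1 at 37.7, NPC1 at 108.8 and SOAT1 at 263.6. Libraries with 1 marked gene gave SREBF2 at 48.69 CPM in uterus month 2 library 5, MYLIP at 158.3 CPM in uterus month 4 library 5, SCARB1 at 16.72 CPM in uterus day 1 library 2, STARD4 at 19.72 CPM in uterus day 1 library 5. The rest were SOAT1 at 103.9 CPM in uterus day 1 library 3, ABCA1 at 219.9 CPM in ovary month 6 library 2 and ABCG1 at 33.01 CPM in uterus month 6 library 1.

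The change of ABCG5 from day 1 to month 6 differed between the organs in the test of the difference, with a fitted log2 value of -9.82 (ovary change minus uterus change, adjusted p = 0.0324 in edgeR). All 5 ovary month 6 libraries had 0 counts, so that fitted value depends on the prior count and is no bound.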

How the results depend on the processing

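RLE scaling changed no count by over 1.5 times. DESeq2 called 1 member in the ovary from month 4 to 6, 2 from day 1 to 6, 2 in the uterus from day 1 to 2 and 2 from day 1 to 6. With only the groups compared in the fit, counts were 0 for the ovary from day 1 to 6, and 2, 18, 1 and 3 between the organs at day 1 and months 2, 4 and 6. Requiring also a log2 change of 1 left 3 between the organs at day 1 and 2 at month 6, and no filter on low counts left 3 at day 1. Without the libraries that stand apart, the ovary from day 1 to 6 gave 3, the organs gave 9, 13, 3 and 8, and the difference in change gave 2. Between the organs the counts over all genes in that fit are not reported here. Equal individual numbers were not taken as pairs, since the labels do not state pairing and the residuals of not every pair correlated above 0.1. That rule cannot decide the question, since some numbers may mark 1 goat and others not. Residuals of 20 ovary and uterus pairs of 1 number correlated from -0.162 to 0.31 (median 0.0711). Of these, 9 were over 0.1, against 15 of 80 pairs of other numbers (median -0.00634). Of 20 ovaries, 8 correlated best with the uterus of their own number, among the 5 uteri of their age. These values do not exclude that some equal numbers mark 1 goat, and the counts with the block follow. With the replicate block VLDLR in the ovary from day 1 to 6 was -1.26 (adjusted p = 0.0958), and the count was 0 for the ovary from day 1 to 6, 2, 1 and 3 between the organs at day 1 and months 4 and 6, and 0 for the difference in change. Leaving out 1 library at a time gave 0 to 2 calls for the ovary from day 1 to 6, 0 to 1 for the uterus from day 1 to 6, 3 to 6, 4 to 13, 2 to 18 and 3 to 7 between the organs by age, and 0 to 1 for the difference in change. The uterus fits hold no ovary library, so ovary month 4 library 5 could not be left out of them. SCARB1 in the ovary from month 2 to 4 turned to -0.35 without month 4 library 5, in a range up to 3.21. SOAT1 in the uterus from day 1 to 6 turned to -0.25 without month 6 library 2, in a range up to 0.77. The cause was not tested. Single-gene results otherwise kept direction, with 721 on the same side of the threshold, 146 no longer past it and 12 newly past it.

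Counts over all genes moved further. For the ovary from day 1 to 6 the 17 calls became 6 with the block, 865 in DESeq2, 0 with only the groups compared and 1044 without both libraries that stand apart. The ovary from day 1 to 2 went from 1 to 58 in DESeq2 and 0 with the block, with only the groups compared or without both libraries that stand apart, and DESeq2 called 28 from month 2 to 4 and 7 from month 4 to 6. The uterus from day 1 to 2 went from 3 to 367 in DESeq2, 0 with only the groups compared and 40 without its library apart. DESeq2 called 40 and 69 uterus genes from month 2 to 4 and 4 to 6. The uterus from day 1 to 6 went from 298 to 195 without a filter, 147 with the block, 1211 in DESeq2, 86 with only the groups compared and 599 without its library apart. With only the groups compared the organs gave 1343, 6232, 665 and 1340 genes against 3649, 4141, 2849 and 2395, and the block gave 1786 at month 4. The difference in change went from 48 to 23 without a filter, 1 with the block, 344 in DESeq2 and 343 without the 3 libraries. With 5 libraries a group, depth limits mainly ABCG5.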
